A study of Rattus norvegicus with 9 samples.

Results

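A set of 151 genes of rat alveolar macrophages was chosen for being lower 1 d after nitrogen mustard (NM) than in PBS controls and close to the PBS level 28 d after NM. They were selected on the expression values themselves, out of 17109 genes in the deposited table and 9885 genes tested. For each gene the FPKM of its transcripts were summed (fragments mapped to a transcript, scaled to its length and to the library's size), and group means were taken of log2(FPKM + 1). A chosen gene had an NM day 1 mean at least 0.6 below the PBS mean and an NM day 28 mean within 0.3 of it. Each of its 3 NM day 1 libraries lay below each of the PBS and NM day 28 libraries, and its PBS mean was at least 5 FPKM. In all 167 genes met these limits. Of these, 3 carried no symbol and 13 were left out by name, since the rule passes over symbols that begin with Slc, Rab, Nduf, Psm, Mrp, Rpl or Rps and the genes Acadvl, Lamp1, Tpp1, Ercc1 and Srebf1. The rule used all 9 libraries, so the levels of the 151 genes are a description and no test is attached to them.

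The libraries came from alveolar macrophages that were gathered by massage of the lungs of male Wistar rats. The PBS group received phosphate-buffered saline into the trachea, and the NM day 1 and NM day 28 groups received 0.125 mg/kg of mechlorethamine by the same route and were sampled 1 d or 28 d later. The labels give the PBS group 0 days of exposure, and its day of collection was not given in the sources used here. Each group held 3 libraries, numbered 0, 1 and 2, which the series' description calls biological replicates. Whether animals were pooled in a library was not given in the sources used here.

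Alveolar macrophages live in the air spaces, where they take up surfactant, dying cells and inhaled particles and break them down in lysosomes. They store the iron of engulfed red cells in ferritin and handle large amounts of surfactant lipid and cholesterol. Mechlorethamine alkylates DNA and cross-links its strands, and in the lung it causes an acute injury followed by fibrosis.

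Absolute depth was not given. Relative depth, read from FPKM values below 1, ran from 1.42 to 2.58 in PBS, from 1 to 1.47 in NM day 1 and from 1.04 to 1.13 in NM day 28, each relative to NM day 1 replicate 0. Of the markers of alveolar macrophages, Mrc1, Cd9, Fabp4, Plet1 and Pparg were present in each of the 9 libraries, with PBS means of 376, 916, 499.8, 1147 and 177 FPKM. Marco, another such marker, was listed at 0 in each of the 9 libraries. Car4 of the same list went the other way, with means of 0.25 FPKM in PBS, 12.8 at day 1 and 6.65 at day 28.

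Across the 151 genes the NM day 1 mean was 36.7% to 66.6% of the PBS mean, with a median of 58.7%. On the log2(FPKM + 1) scale the median difference at day 1 was -0.73, from -1.45 to -0.60, against a median of -0.04 over all genes tested. There were 18 genes at -1 or below, 77 between -1 and -0.7 and 56 above -0.7. At day 28 the same genes stood at 78.3% to 124% of the PBS mean, with a median of 95.3%. Their median difference at day 28 was -0.07, from -0.30 to 0.29, against a median of -0.04 over all genes tested. In the set 98 genes were below and 53 above the PBS mean. Of the 151, 56 were within 0.1 of the PBS mean.

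**Figure D1:**
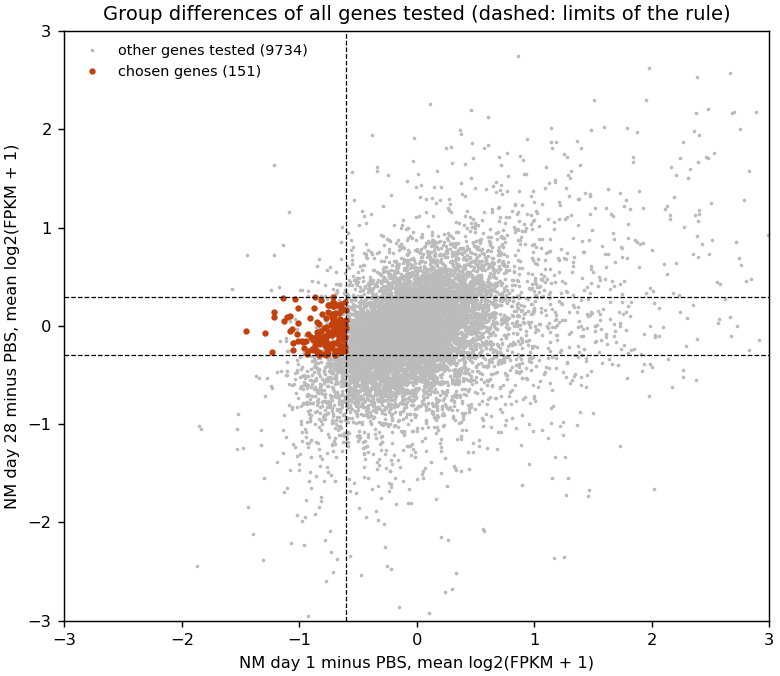
Difference of NM day 1 from PBS (x axis) against that of NM day 28 from PBS (y axis), both in mean log2(FPKM + 1), for the 151 chosen genes (orange) and 9734 other genes tested (grey). The dashed lines are the limits of the rule, -0.6 at day 1 and -0.3 to 0.3 at day 28, and 71 genes lie outside the axes. The chosen genes form the band left of -0.6 around a day 28 difference of 0, and they share it with genes that other limits of the rule left out.

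The rule's limits cut through a continuous range. There were 580 genes with a PBS mean of at least 5 FPKM, a day 1 difference of at most -0.6 and each NM day 1 library below each PBS library. At day 28, 209 of them were within 0.3 of the PBS mean, 353 were lower and 18 were higher. After the same names were left out, 159 genes were lower by 0.6 or more at both days with each NM library below each PBS library. Overlap of single libraries alone kept out 54 genes. Just inside the day 1 limit were Anapc15, Ethe1 and Zdhhc8 (each -0.60) and just outside it Ssna1, C7h22orf23 and Gnl2 (each -0.60 after rounding). Around the lower limit at day 28, Zbtb4 and Cyb5r3 (-0.30) and Stbd1 (-0.29) were inside, and Ptger1 (-0.32), Rogdi (-0.32) and Gatad2a (-0.33) outside. Around the upper one, Cabp7 (0.28), Prrt3 (0.29) and Smim29 (0.29) were inside, and Cxcr1 (0.31), Mbd6 (0.31) and Plekhh3 (0.36) outside. Scx, Zfhx2 and Stbd1 had the lowest PBS means kept (6.29, 6.79 and 7.54 FPKM), and Rad9b, Sirt4 and Morn1 (4.56, 4.18 and 2.46 FPKM) were left out for their level alone.

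How far the groups stood apart was measured as the lowest PBS or NM day 28 library over the highest NM day 1 library. This ratio of FPKM had a median of 1.20 and ran from 1.00 (Zdhhc8) to 2.18 (Tnfrsf8). It was over 1.5 in 12 genes and under 1.1 in 34. Tarbp2, Rpusd1 and Abca2 (0.998, 0.981 and 0.977) were just outside. Over all genes tested, 6.81% had each NM day 1 library below each of the other 6, and for the chosen genes that order was part of the rule. The NM day 28 libraries overlapped the PBS range in 141 of the 151 genes, were all below it in 7 and all above it in 3.

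The 3 NM day 1 libraries were not alike. Relative to each gene's PBS mean, the median over the chosen genes was -0.87 in replicate 0, -0.79 in replicate 1 and -0.61 in replicate 2. Replicate 0 held the lowest of the 3 values in 92 genes, replicate 1 in 54 and replicate 2 in 5. The highest was in replicate 2 for 94 genes. The PBS libraries had medians of -0.03, 0.09 and -0.05, and the NM day 28 libraries -0.02, -0.08 and -0.08. Relative depth of the NM day 1 libraries was 1, 1.36 and 1.47 in the same order, and its part in the order of the medians was not tested.

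**Figure D2:**
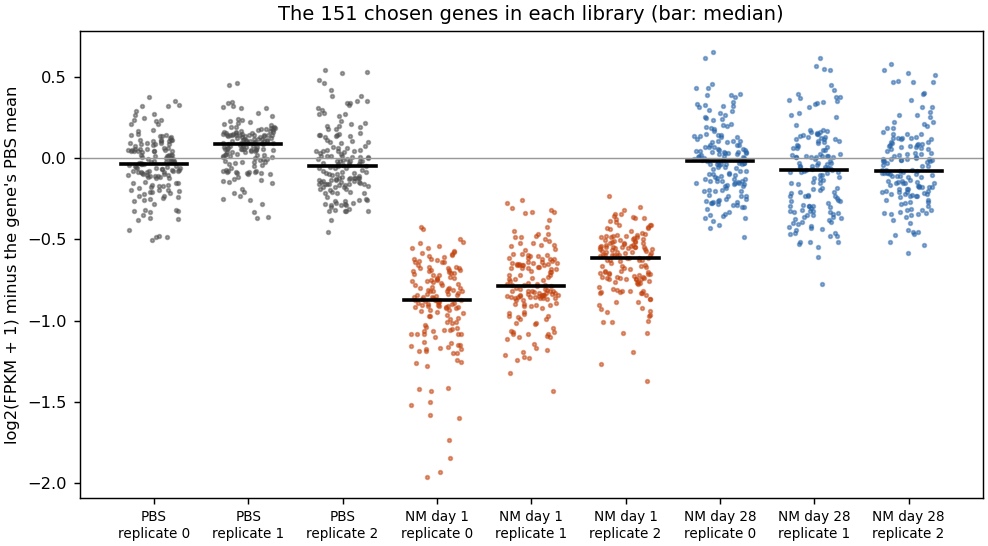
Each point is 1 of the 151 chosen genes in 1 of the 9 libraries (x axis), as log2(FPKM + 1) minus the gene's PBS mean (y axis), and each bar is a library's median. The NM day 1 medians lie at -0.87, -0.79 and -0.61, and the NM day 28 medians at -0.02, -0.08 and -0.08, next to those of PBS.

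In limma's moderated test over all 9885 genes, 115 of the 151 passed an adjusted p of 0.05 as lower at day 1. The share called lower among all genes tested was 4.58%, and nothing is read from the count, since the rule used the same contrast. Leaving out PBS replicate 0 or 1 brought the 115 to 64 or 28, and leaving out NM day 1 replicate 0 or 1 to 21 or 42. The 36 genes not called included 5 of the 6 with the highest levels. At day 28 limma called 0 of the 151, against 3.98% called lower and 3.07% called higher of all genes tested. An unadjusted p under 0.05 was reached by 0 of the 151 and by 23.9% of all genes tested. The rule used this contrast as well, and nothing is read from these counts.

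The PBS means of the chosen genes ran from 6.29 FPKM to 53661 FPKM, with a median of 59.7. Of the 151, 47 were above 100 FPKM, 6 above 1000 and 13 below 10. The largest part of the RNA in the set was ferritin. Ferritin stores iron in a shell of light chains (Ftl1) and heavy chains (Fth1), the latter of which oxidise the iron. Ftl1 was at 57345, 58848 and 44791 FPKM in PBS, 22330.2, 24652 and 31917 at NM day 1 and 71914, 59339 and 62085 at NM day 28, a difference of -1.03 at day 1 and 0.27 at day 28. Fth1 was at 21489.8, 17270.2 and 13739 FPKM in PBS, 10594, 10769 and 12208 at NM day 1 and 16578, 14006 and 14003 at NM day 28 (day 1 difference -0.62). Processed copies of ferritin genes are near-identical, and how reads with several matches were counted is not known here, so these levels are uncertain. For both chains each day 1 library was below each other library, and for both the test at day 1 did not pass. Ftl1 alone took 5.67% to 6.24% of the summed FPKM of a PBS library, 3.15% to 4.11% at day 1 and 7.80% to 8.51% at day 28. All 151 genes together took 10.4% to 11.0%, 6.69% to 7.94% and 12.5% to 14.0%.

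The values of the highest genes moved with the scaling of the libraries. Quantile normalisation, which gives each library the same set of values, put the day 1 difference of Ftl1 at 0, as it must for a gene that is highest in each library, and that of Fth1 at -0.08. The same scaling moved Vim, Tyrobp, Lta4h and Cyb5a to -0.35, -0.28, -0.37 and -0.65. Under it 150 of the 151 genes were still below PBS at day 1.

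The other genes with PBS means above 1000 FPKM were a filament protein, an immune adaptor and enzymes. Vim, which encodes vimentin, the intermediate filament of mesenchymal and myeloid cells, had 6904, 6771 and 5689 FPKM in PBS, 3426, 3634 and 4522 at day 1 and 6463, 6446 and 5571 at day 28 (day 1 difference -0.75). Tyrobp, the adaptor DAP12 that carries the signal of receptors such as Trem2, had 5411, 5299 and 4091 FPKM in PBS, 3060.3, 2726 and 3349 at day 1 and 5409.6, 5524 and 4403 at day 28 (-0.69). The day 28 libraries of both lay among or close to the PBS libraries. Lta4h, which makes the neutrophil attractant leukotriene B4, had 1202, 1226 and 971 FPKM in PBS, 748, 593 and 862 at day 1 and 1130.3, 1236 and 1011 at day 28 (-0.63). Cyb5a, cytochrome b5, which passes electrons to lipid desaturases and other enzymes of the endoplasmic reticulum, had 1195, 1125 and 881 FPKM in PBS, 499.6, 567 and 595 at day 1 and 835, 1114 and 707 at day 28 (-0.94). Cyb5a differed from the others in that 2 of its 3 day 28 libraries stayed below the PBS range.

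The largest difference of the set was in Tnfrsf8, which encodes CD30, a receptor of the tumour necrosis factor receptor family. It had 132, 141 and 128 FPKM in PBS, 36.5, 55.9 and 54.8 at day 1 and 122, 141 and 124 at day 28, differences of -1.45 and -0.05. The highest day 1 library held less than the lowest of the other 6 by a factor of 2.18, the widest gap of the set. Its promoter is shown because it leads the set. The 250 bases before its start in the RefSeq annotation of GRCr8 (chr5:162451621-162451870, minus strand; a newer build than that of the files) are given 5′ to 3′, with capitals for a GC box of Sp and KLF factors (GGGCGG, 188 bases before the start), an AP-1 motif (TGANTCA, 127 before) and a PU.1 motif (GAGGAAG, 15 before). A second PU.1 match begins 6 bases before the start and spans it, so it is not marked.
Tnfrsf8: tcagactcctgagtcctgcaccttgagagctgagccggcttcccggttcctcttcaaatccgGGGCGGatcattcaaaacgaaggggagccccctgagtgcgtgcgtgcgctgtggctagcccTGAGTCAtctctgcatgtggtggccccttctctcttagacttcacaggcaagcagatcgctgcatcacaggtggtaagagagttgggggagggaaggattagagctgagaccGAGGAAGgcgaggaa

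These motifs were common elsewhere too. Promoters of 300 bases (250 before to 50 after the start) were found for 127 of the 151 genes and 7715 of the genes tested. The GC box stood in 65.4% of the chosen and 62.0% of all promoters, AP-1 in 6.30% and 5.17%, and PU.1 in 11.8% and 13.6%, both strands being searched. A match is a string of letters and was not tied to binding in these data.

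The next 9 genes by size of difference fell into 7 of the roles described further on. Pcsk1n, which encodes proSAAS, an inhibitor of a prohormone convertase, had 59.7, 108 and 73.1 FPKM in PBS, 19.3, 36.4 and 43.3 at day 1 and 71.9, 101 and 55.8 at day 28 (-1.29 at day 1). Dhrs3, which turns retinal into retinol, had 127, 132 and 109 FPKM in PBS, 42.5, 52.8 and 60.2 at day 1 and 98.8, 117 and 89.6 at day 28 (-1.23). Ift27, a small GTPase of the transport along cilia, had 19.9, 22.4 and 21.0 FPKM in PBS, 4.79, 10.3 and 12.2 at day 1 and 27.7, 15.6 and 26.5 at day 28 (-1.22). In Pcsk1n and Ift27 day 1 replicate 0 was far below replicates 1 and 2, and the 3 libraries of Dhrs3 were closer together. Kcnh4, a voltage-gated potassium channel, had 48.3, 54.4 and 74.5 FPKM in PBS, 18.5, 31.8 and 24.8 at day 1 and 64.1, 64.4 and 64.6 at day 28 (-1.22). Cabp7, a calcium-binding protein, had 11.3, 18.6 and 14.2 FPKM in PBS, 4.39, 5.59 and 8.71 at day 1 and 18.4, 21.4 and 14.1 at day 28 (-1.14). Trim47, a ubiquitin ligase with a RING domain, had 75.6, 81.6 and 66.9 FPKM in PBS, 27.2, 33.2 and 41.6 at day 1 and 83.9, 69.3 and 78.4 at day 28 (-1.13). Of these 3, Kcnh4 had day 28 libraries almost equal to each other, inside the PBS range.

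Apoa2, an apolipoprotein of high density lipoprotein, had 15.5, 9.97 and 10.4 FPKM in PBS, 6.29, 3.71 and 5.04 at day 1 and 15.7, 10.4 and 12.0 at day 28 (-1.10). Vgll4, a cofactor that binds the TEAD transcription factors, had 46.5, 81.3 and 74.6 FPKM in PBS, 23.7, 36.8 and 32.3 at day 1 and 74.7, 61.7 and 76.2 at day 28 (-1.08). Tpgs1, a subunit of the enzyme that adds glutamate chains to tubulin, had 25.3, 30.9 and 22.7 FPKM in PBS, 11.0, 12.1 and 12.5 at day 1 and 27.2, 20.6 and 28.5 at day 28 (-1.08). The day 1 libraries of Tpgs1 lay within 11.0 to 12.5 FPKM, a narrow range beside those of Apoa2 and Vgll4. With a pseudocount of 5 the difference of Apoa2, the lowest of the 10 by level, shrank to -0.75.

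**Figure D3:**
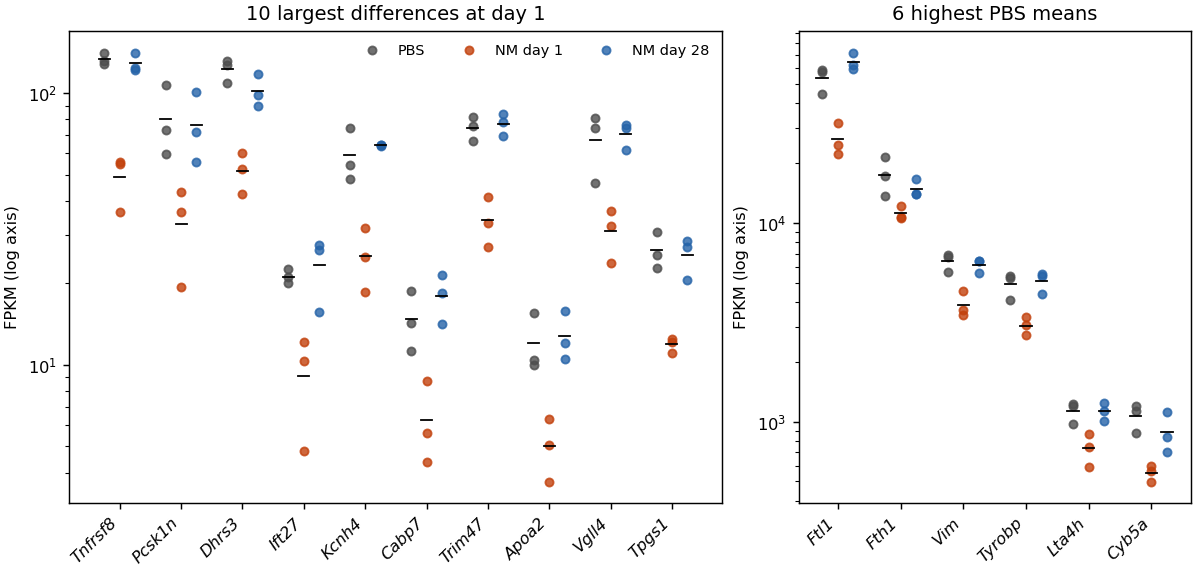
FPKM on a log axis of the 10 chosen genes with the largest day 1 difference (left) and the 6 with the highest PBS mean (right), with 1 point per library and a bar at the mean of each group of 3. In each of the 16 genes the orange NM day 1 points lie below the grey PBS and the blue NM day 28 points, with the widest gap in Tnfrsf8 (2.18).

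The 151 genes were sorted by what their products do into 15 roles, after their values had been seen. The largest roles were mitochondrial and other small-molecule metabolism (16 genes), the secretory pathway with peptide processing and matrix (15) and lysosome, endosome, autophagy and nutrient sensing (15). By role the median day 1 difference ran from -0.97 (DNA repair, replication and nucleotide enzymes, 4 genes) to -0.63 (ubiquitin ligases and the anaphase-promoting complex, 9 genes). At day 28 the role medians ran from -0.15 (the same DNA enzymes) to 0.12 (channels, transporters and other membrane proteins, 11 genes). The roles overlapped widely at both days.

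**Figure D4:**
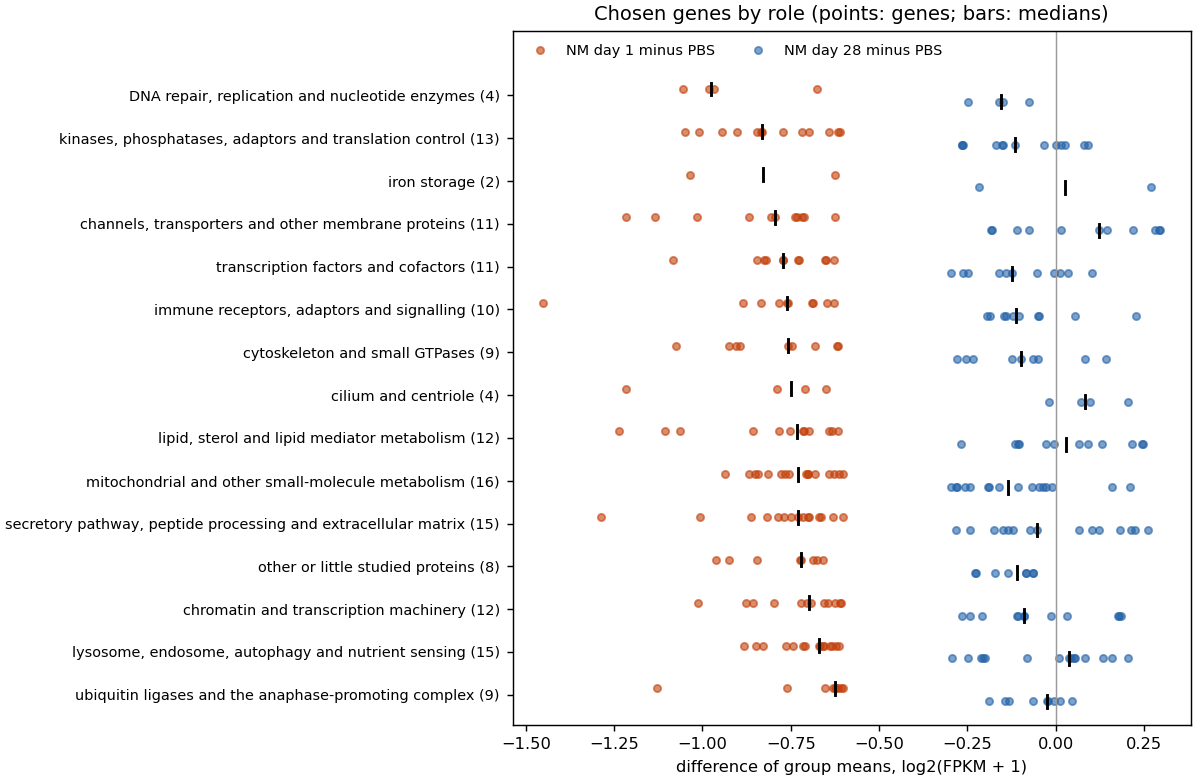
Difference from PBS in mean log2(FPKM + 1) at NM day 1 (orange) and NM day 28 (blue) for the chosen genes of each of 15 roles, with the number of genes in brackets, 1 point per gene and a bar at the median. The day 1 medians run from -0.97 to -0.63, and the day 28 medians from -0.15 to 0.12.

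Among immune receptors, adaptors and signalling proteins (10 genes, median -0.76) were Myadm (-0.88), a membrane protein of myeloid cells, and Dok3 (-0.76), an adaptor that dampens receptor signalling. Irf3 (-0.65), the transcription factor that turns on interferon beta after viral sensing, had the highest day 28 value of the role (0.23). Arrb1, beta-arrestin 1, which silences and internalises G protein-coupled receptors, had 97.3, 132 and 196 FPKM in PBS, 60.9, 93.5 and 76.8 at day 1 and 104, 146 and 113 at day 28 (-0.83). Plcb2, the phospholipase C driven by G proteins, had 161, 161 and 249 FPKM in PBS, 81.1, 154 and 123 at day 1 and 155, 224 and 169 at day 28 (-0.69). PBS replicate 2 was the highest PBS library of both, and in Plcb2 the highest day 1 library nearly reached the lowest day 28 library (ratio 1.01).

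Lipid, sterol and lipid mediator genes (12, median -0.73) covered phospholipid, cholesterol and retinoid handling. Agpat3, which makes phosphatidic acid, had 56.2, 71.3 and 61.4 FPKM in PBS, 25.2, 37.1 and 42.6 at day 1 and 56.4, 60.8 and 56.4 at day 28 (-0.86). Pld2, a phospholipase that releases phosphatidic acid, had 94.5, 114 and 132 FPKM in PBS, 59.7, 71.7 and 76.8 at day 1 and 117, 140.4 and 115 at day 28 (-0.70). St3gal5, which makes the ganglioside GM3, had 75.4, 82.8 and 69.7 FPKM in PBS, 39.8, 47.2 and 44.2 at day 1 and 81.5, 57.5 and 74.5 at day 28 (-0.78). Cholesterol was represented by Scap (-0.72), the escort of the SREBP transcription factors, by Soat2 (-0.75), which esterifies cholesterol, and by Hsd3b7 (-0.71), an enzyme of bile acid synthesis. Angptl6 (-1.06), a secreted angiopoietin-like protein, Pctp (-0.64), a carrier of phosphatidylcholine, and Rdh11 (-0.62), a retinol dehydrogenase, completed the role with Dhrs3, Apoa2 and Lta4h.

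Lysosome, endosome, autophagy and nutrient sensing genes (15) had a median of -0.67 at day 1 and 0.04 at day 28. Npc1, which moves cholesterol out of lysosomes, had 69.2, 71.4 and 71.3 FPKM in PBS, 32.8, 51.4 and 52.1 at day 1 and 72.6, 90.5 and 57.9 at day 28 (-0.66). Chmp2a, a subunit of the ESCRT-III complex that buds vesicles into endosomes, had 506, 589 and 494 FPKM in PBS, 322, 299.9 and 376 at day 1 and 627, 389.6 and 616 at day 28 (-0.67). Atg2a, which carries lipid into growing autophagosomes, had 18.9, 20.4 and 27.0 FPKM in PBS, 11.4, 15.4 and 15.1 at day 1 and 16.7, 23.5 and 16.9 at day 28 (-0.62). Day 28 replicate 1 was the highest day 28 library in Npc1 and Atg2a and the lowest in Chmp2a. The largest differences of the role were in Hip1 (-0.88), a protein of clathrin-coated vesicles, and Sidt2 (-0.85), a lysosomal membrane protein. Rragd (-0.61), a GTPase that brings mTORC1 to lysosomes, Ctsf (-0.74), a cathepsin, and Abcd4 (-0.71), which exports cobalamin from lysosomes, were also in it.

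The E-box TCACGTGA, known as the CLEAR core and bound by the lysosomal regulator Tfeb, was searched for in the same promoters. It stood in 4 of 127 chosen promoters (3.15%) and in 1.79% of all promoters, or 2.02% of those of genes with a PBS mean of at least 5 FPKM. The 4 are shown because 1 of them, Zfyve26 (-0.66), is an endosomal protein of the role above. The other 3 were Dyrk1b (-1.01), a kinase, Arl2 (-0.92), a small GTPase of tubulin folding, and Armc9 (-0.79), a protein of the cilium base. Each is given 5′ to 3′ from GRCr8 with the motif in capitals and up to 60 bases on each side, cut at the start of the gene, or at the end of the motif in Armc9, where it spans the start. The motif begins 49, 74, 2 and 126 bases before the start in Dyrk1b (chr1:92606634-92606742, plus strand), Arl2 (chr1:212875373-212875500, minus), Armc9 (chr9:94250797-94250864, plus) and Zfyve26 (chr6:103828522-103828649, minus).
Dyrk1b: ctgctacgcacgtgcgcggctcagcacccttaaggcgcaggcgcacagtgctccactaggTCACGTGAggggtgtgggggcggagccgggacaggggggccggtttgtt
Arl2: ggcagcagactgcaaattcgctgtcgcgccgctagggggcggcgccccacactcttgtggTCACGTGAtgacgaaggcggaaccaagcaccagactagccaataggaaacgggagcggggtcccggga
Armc9: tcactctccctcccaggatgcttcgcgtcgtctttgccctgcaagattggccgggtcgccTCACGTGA
Zfyve26: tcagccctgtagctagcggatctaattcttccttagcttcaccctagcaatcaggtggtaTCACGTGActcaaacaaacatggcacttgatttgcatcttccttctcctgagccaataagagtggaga

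Median GC content was 61.3% against 60.3%, and the ratio of observed to expected CpG was 0.676 against 0.773 (0.797 for genes with a PBS mean of at least 5 FPKM). The shorter E-box CACGTG stood in 12.6% against 9.76% of promoters, and the ETS motif CCGGAAG in 14.2% against 19.7% (22.2% for genes with a PBS mean of at least 5 FPKM). Other motifs were TATAAA (4.72% against 7.12%), the NRF1 motif GCGCATGC (3.94% against 5.21%), TGACGTCA, bound by CREB (2.36% against 3.38%), and AGGTCA, bound by nuclear receptors (11.0% against 11.9%). TGCTGA, a part of the site of MAF factors, stood in 18.9% against 15.2%, and TTGCGCAA, bound by C/EBP factors, in 0 of 127 against 0.259%. These are descriptions of 300 base windows, with no test.

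Metabolic genes (16, median -0.73) were the largest role, and 14 of the 16 were below the PBS mean at day 28. Eci1, an isomerase of mitochondrial fatty acid oxidation, had 72.9, 74.3 and 54.9 FPKM in PBS, 32.6, 37.5 and 49.0 at day 1 and 59.3, 50.6 and 54.9 at day 28 (-0.76 and -0.28). Pc, pyruvate carboxylase, which feeds the citrate cycle, had 9.41, 10.2 and 9.41 FPKM in PBS, 4.63, 7.91 and 5.55 at day 1 and 9.85, 8.56 and 9.14 at day 28 (-0.63 and -0.07). With a pseudocount of 5 the day 1 difference of Pc was -0.42. The role also held Fah (-0.87) of tyrosine breakdown, Gys1 (-0.71), which makes glycogen, Clpb (-0.70), a mitochondrial chaperone, Ethe1 (-0.60) of sulphide oxidation and G6pc3 (-0.68), a glucose-6-phosphatase.

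In the secretory pathway (15 genes, median -0.73) several enzymes act on collagen and other matrix molecules. P3h3 (-1.01) and Plod1 (-0.79) belong to the enzymes that hydroxylate collagen, and Sulf2 (-0.71) trims sulphate from heparan sulphate. Ece2 (-0.86) cleaves peptides such as big endothelin, Psenen (-0.66) is a subunit of gamma-secretase, and Ergic3 (-0.67) and Copz2 (-0.82) serve vesicle traffic between the endoplasmic reticulum and the Golgi. Copz2 and P3h3 were above the PBS mean at day 28 (0.26 and 0.18), and Plod1 and Ergic3 below it (-0.28 and -0.24).

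Transcription factors and cofactors (11, median -0.77) included factors known from macrophages. Klf4, which takes part in monocyte differentiation and alternative activation, had 49.7, 76.9 and 89.7 FPKM in PBS, 38.0, 40.3 and 39.3 at day 1 and 61.0, 52.9 and 75.9 at day 28 (-0.82). Mef2d, a MADS box factor, had 27.9, 38.8 and 44.0 FPKM in PBS, 20.2, 24.7 and 23.6 at day 1 and 30.9, 40.4 and 34.2 at day 28 (-0.65). Etv5, an ETS factor, had 21.3, 18.3 and 14.4 FPKM in PBS, 10.7, 10.9 and 11.8 at day 1 and 13.1, 18.0 and 13.8 at day 28 (-0.63). In Klf4 and Mef2d the spread was mainly among the PBS libraries, where replicate 0 was the lowest, while the day 1 libraries were close together. Foxp1 (-0.73), a forkhead factor that restrains monocyte differentiation, Zbtb4 (-0.77), which binds methylated DNA, and Scx (-0.85), a tendon factor at the lowest level of the set, were further members.

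Chromatin and transcription machinery (12, median -0.70) held Ezh1, a methyltransferase of histone H3 in Polycomb repressive complex 2. It had 39.6, 38.6 and 39.6 FPKM in PBS, 20.8, 25.3 and 28.1 at day 1 and 37.7, 38.7 and 34.2 at day 28 (-0.65). Med25 (-1.01) of Mediator, Hmg20b (-0.88) of a histone demethylase complex, Men1 (-0.70), which encodes menin, and Ell (-0.65), an elongation factor of RNA polymerase II, were in the same role. Of the 12, 8 were below the PBS mean at day 28.

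The DNA enzymes (4 genes) had the lowest role median, -0.97. Xrcc5 (-1.05), the Ku80 subunit that holds broken DNA ends, had 929.7, 850.2 and 633 FPKM in PBS, 362, 353 and 435 at day 1 and 656, 674 and 675 at day 28. Rnaseh2a (-0.97), which removes ribonucleotides from DNA, Nme6 (-0.98), a nucleoside diphosphate kinase, and Polm (-0.68), a polymerase of end joining, were the others. Each of the 4 was below the PBS mean at day 28, from -0.25 in Xrcc5 to -0.08 in Polm.

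Kinases, phosphatases, adaptors and translation control (13 genes, median -0.83) included Samd4b (-1.05), an RNA-binding repressor, Hipk2 (-0.77), a nuclear kinase of the DNA damage response, and Mknk2 (-0.72) and Eif4ebp1 (-0.70), which act on the cap-binding factor of translation. Map3k11, a kinase above the JNK pathway, had 65.0, 73.0 and 73.3 FPKM in PBS, 41.5, 45.4 and 47.5 at day 1 and 65.8, 50.8 and 59.5 at day 28 (-0.64). Its day 28 replicate 1 was near the highest day 1 library, and quantile normalisation moved its difference to -0.50.

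Genes of the cytoskeleton and small GTPases (9, median -0.76) beside Vim and Tpgs1 included Rhog, a small GTPase of phagocytosis and membrane ruffling. It had 558, 629 and 485 FPKM in PBS, 293, 273 and 330.4 at day 1 and 449, 601 and 387 at day 28 (-0.89). Arhgef2, which activates RhoA when released from microtubules, had 111, 137 and 164 FPKM in PBS, 81.0, 96.0 and 88.6 at day 1 and 116, 142 and 118 at day 28 (-0.62). Rhog at day 28 was below the PBS range in 2 of 3 libraries, and Arhgef2 was within it in each of the 3. Cdc42ep4 (-0.76), an effector of Cdc42, and Pdlim1 (-0.68), which binds alpha-actinin, were further members.

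Ubiquitin ligases (9, median -0.63) had the role median closest to the day 1 limit, and Trim47 (-1.13) and Fbxl6 (-0.76), an F-box protein, were the lowest of them. Anapc5 (-0.62) and Anapc15 (-0.60) are subunits of the anaphase-promoting complex, which ends mitosis. Rnf44, a RING finger protein, had 28.5, 35.3 and 52.0 FPKM in PBS, 20.01, 26.8 and 25.2 at day 1 and 29.1, 48.8 and 37.8 at day 28 (-0.63). The lowest PBS library of Rnf44 was close to its highest day 1 library. The cilium and centriole genes were, with Ift27 and Armc9, Zmynd10 (-0.71), which helps to assemble ciliary dynein, and Ppp1r35 (-0.65), a centriole protein. Among membrane proteins (11, median -0.79 at day 1 and 0.12 at day 28) were Rhbg (-0.79), an ammonium transporter, and Prrt3 and Smim29 (-0.87 and -0.71), both close to the upper day 28 limit. The role of other or little studied proteins held 8 genes, from -0.96 in Ppdpf to -0.66 in C20h6orf136.

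A few of the chosen genes are neighbours or have several transcripts. In the gene order of GRCr8 there were 3 pairs of neighbours, Gys1 with Ftl1, Ppp2r5b with Atg2a and Mef2d with Rhbg, and whether reads were shared between neighbours was not tested. Of the 151 genes, 5 had several transcript rows. In Bles03 the row that carried 23.1% of its PBS sum ran from 4.53 to 16.8 FPKM in PBS and from 0.000973 to 0.00301 at day 1. At day 28 its mean of 7.95 FPKM came from 1 library at 23.8, and the other 2 were near 0, the lowest at 0.00151. The other row of Bles03 had means of 30.3, 24.0 and 26.8 FPKM. A different split of reads between the transcripts of Bles03 cannot be told apart from a change in either of them. In Zfp385a, Egfl8, Mbp and Clpb the row with the largest share of the PBS sum was lower at day 1 as well.

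Pathways to which the chosen genes belong were followed through 18 gene lists, 12 of which held a chosen gene (18 genes in all). The lists were drawn up with earlier results of these data known. Of 49 lysosomal genes tested 8 were called lower and 1 higher at day 1 (median difference -0.31), and Npc1 was the only chosen one. Tpp1 (-0.64), called lower on this list, met the limits on the values and was left out by name. Of 41 genes of lipid droplets, triacylglycerol and phospholipids 7 were lower and 1 higher (median -0.29), with Agpat3, Pld2 and Plcb2 chosen. Of 30 lipid-sensing nuclear receptors and cholesterol exporters 7 were lower and 4 higher (median -0.37), with none chosen. Over all genes tested 4.58% were lower and 5.28% higher, with a median of -0.04.

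The other lists were smaller in their counts. Macrophage transcription factors had 2 lower and 5 higher of 38, with Klf4, Mef2d and Etv5 chosen. Fatty acid oxidation and peroxisome genes had 3 lower and 0 higher of 47, autophagy 2 and 0 of 31, endosomal sorting 2 and 1 of 42, and enzymes of the citrate cycle and of pyruvate 2 and 0 of 46. Chromatin modifiers had 3 lower and 0 higher of 29, kinases downstream of Csf1r 4 and 2 of 48, ubiquitin ligases 1 and 0 of 37, and glycan synthesis 4 and 4 of 42. Without a chosen gene, microtubule genes had 5 lower and 0 higher of 30, transforming growth factor beta 3 and 0 of 24, mitochondrial quality control 2 and 0 of 35, clock genes 0 and 2 of 15, and the vacuolar ATPase 0 and 0 of 32. Medians of these lists ran from -0.21 (autophagy) to 0.08 (clock genes).

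List genes outside the set were named as the called ones with the smallest p. Some of them moved against the chosen genes. Ctsl, a lysosomal cathepsin, was at 11.5 ± 2.52 FPKM in PBS and rose to 40.7 ± 6.86 at day 1 (group mean with SD, n = 3), a log2 difference of 1.75 with an SE of 0.22 (limma, adjusted p = 0.000367 after Benjamini-Hochberg). St3gal4, which like St3gal5 adds sialic acid to galactose, rose from 22.8 ± 4.19 to 73.1 ± 12.7 FPKM (1.64 ± 0.19, adjusted p = 0.000258 by limma). Runx3, Nr4a3, Nr4a2 and B4galnt1, which makes the ganglioside GM2 from the product of St3gal5, also rose (2.02, 2.58, 1.45 and 1.66, with the highest adjusted p = 0.0102 by limma for Runx3). Among those that fell, Cidec, a protein of lipid droplets, went from 48.8 ± 4.81 to 23.9 ± 3.14 FPKM at day 1 and 17.1 ± 1.82 at day 28 (log2 -1.004 and -1.46, adjusted p = 0.00332 and 0.000425 by limma). Pmepa1, a target of transforming growth factor beta, fell at both days (-1.48 and -1.24, adjusted p = 0.00192 and 0.00723 by limma). Tppp, which promotes tubulin polymerisation, fell at day 1 (-1.85, adjusted p = 0.00678 by limma). These list genes passed at day 1 in each alternative in which they were tested. Nr4a3 and Runx3 were near 0 in PBS (means 0.23 and 0.32 FPKM) and at day 28 (0.66 and 0.18). Both met the filter of 1 FPKM in 3 libraries only through the day 1 libraries and were tested in 13 of 17 alternatives. Nothing is read from the calls of these genes. B4galnt1 was also low in PBS (0.77 FPKM).

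Another 23 genes named by that rule lost the call in 1 or more alternatives, and their direction was kept in each. Pla2g15, Agpat1 and Tppp3 (-1.02, -0.90 and -1.84) lost it only without NM day 1 replicate 0 (adjusted p = 0.0858, 0.0523 and 0.0584 by limma). Arhgef7 (-0.85), a Rac and Cdc42 exchange factor, lost it without that library or PBS replicate 1 (adjusted p up to 0.0687 by limma). Pink1 (-0.93), Hdac5 (-1.06), Pdk2 (-0.76), Tgfb1 (-0.80) and Nr1d1 (0.94) lost it in 3 or 4 alternatives, all of them with a library left out. Ap3d1, Ap1m1, Ech1, Fis1, Actn4, Ehmt2, Per3, Trim8, Dbt, Syk, Map3k6, Acads, Bnip3l and Map1lc3a lost it in 5 to 14. For these 14 the leave-outs included PBS replicate 1 and NM day 1 replicate 0, and the adjusted p reached 0.228 (Map1lc3a, by limma).

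Markers of other cell types moved at day 1, in the libraries in which the chosen genes were low. In bulk RNA, fewer cells of a type and less RNA per cell cannot be told apart. Of 8 monocyte and recruited macrophage markers tested, 7 were called higher at day 1, and their summed level went from 4.62 to 9.48 FPKM in PBS to 115 to 177 at day 1 and 22.3 to 28.3 at day 28. Ccr2 and Ly6c of that list were at 0 in the 3 PBS libraries. Of 7 neutrophil markers 5 were higher, with sums of 72.5 to 107, 532 to 906 and 211 to 723 FPKM, Retnlg being at 0 in the PBS libraries. Of 13 alveolar epithelial markers 9 were higher, with sums of 232 to 385, 1029 to 3076 and 279 to 385 FPKM, and Sftpd was at 0 in each library. Of 10 lymphocyte and natural killer cell markers 5 were higher, with sums of 30.2 to 39.7, 103 to 111 and 34.7 to 47.1 FPKM. Over all genes tested 5.28% were called higher at day 1. Ccr2, Ly6c, Fcnb, Retnlg, Lamp3, Slc34a2 and Blk met the filter of 1 FPKM in 3 libraries only through the day 1 libraries. The counts called higher were thus tilted by the filter, and nothing is read from them.

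The monocyte, alveolar epithelial and lymphocyte sums at day 28 were thus nearer to PBS than to day 1, as the levels of the chosen genes were by rule. Of 11 alveolar macrophage markers tested, 2 (Cidec and Pparg) were called lower and 1 (Car4) higher at day 1. The sum of the list was 2306 to 5017 FPKM in PBS, 2029 to 2700 at day 1 and 2282 to 2513 at day 28. Airway epithelial markers (1 lower and 0 higher of 5) summed to 1258 to 7693, 1239 to 2993 and 765 to 1194 FPKM. Those of endothelium, fibroblasts and smooth muscle (0 lower and 1 higher of 5) summed to 56.0 to 58.4, 53.9 to 63.5 and 40.3 to 56.3 FPKM. The 1 called higher, Plvap, also met the filter only through the day 1 libraries. Erythroid and platelet markers (0 called of 5) summed to 670.1 to 2607, 579 to 941 and 701 to 855 FPKM. Within day 1, replicate 0, where the chosen genes were lowest, had the highest neutrophil and alveolar epithelial sums (906 and 3076 FPKM) and replicate 2 the lowest (532 and 1029 FPKM). For monocyte markers the order was the reverse (115, 173 and 177 FPKM in replicates 0, 1 and 2). The part of any of these cell types in the lower levels of the chosen genes was not tested.

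**Figure D5:**
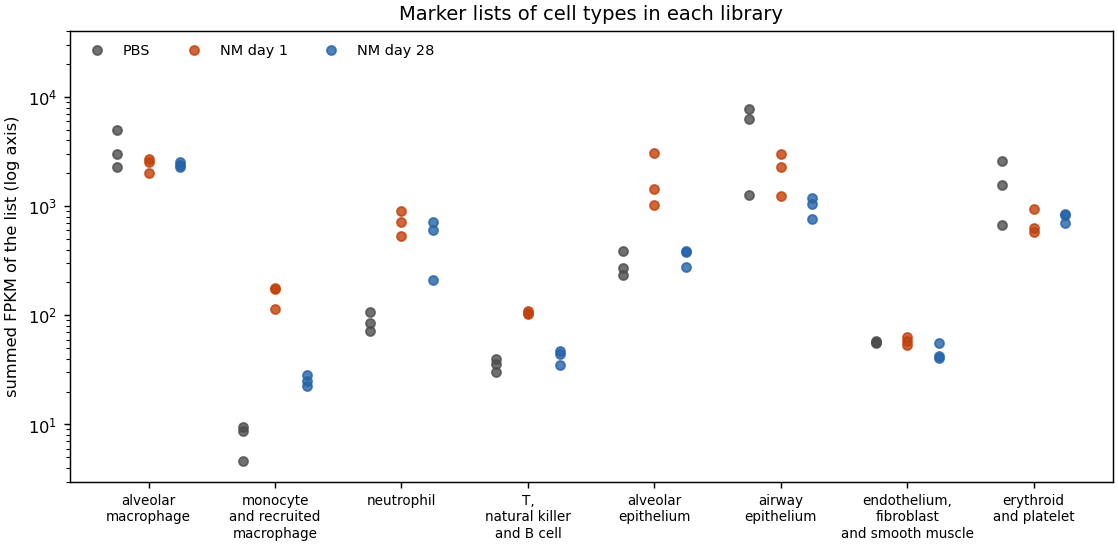
Summed FPKM (log axis) of the markers of 8 cell types in each library, with grey points for PBS, orange for NM day 1 and blue for NM day 28. The monocyte sums are 4.62 to 9.48 in PBS, 115 to 177 at day 1 and 22.3 to 28.3 at day 28, and the alveolar macrophage sums of the 3 groups overlap.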

How the data were processed

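RNA was sequenced from alveolar macrophages in 9 libraries, 3 per group. Per the labels' protocols, RNeasy columns gave the RNA and a TruSeq kit the libraries, read from both ends, with no statement of strand. Per the submitters' processing notes, TopHat and Cuffdiff were used with the rat build rn4. Their versions, the annotation and the handling of multiply mapped reads are not given in the sources used here. FPKM per RefSeq transcript (18197 rows) were deposited by the authors and taken as they stood.

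Symbols came from a RefSeq table of GRCr8 (17189 rows matched). FPKM were summed per symbol, and 9885 genes with at least 1 FPKM in at least 3 libraries entered the test, a linear model of log2(FPKM + 1) by limma 3.58.1 under R 4.3.3 (lmFit, eBayes with trend), with Benjamini-Hochberg adjustment and a threshold of 0.05. The spread was shared by all 9 libraries. The pseudocount of 1 makes differences of low genes smaller than their FPKM ratio. Python 3.11.15 with numpy 2.4.6, pandas 2.3.3 and matplotlib 3.10.9 was used for the rest.

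The chosen genes and the lists were picked with earlier results of these data known. Named with values in each library were the 10 chosen genes with the largest day 1 difference, the 6 with the highest PBS mean and up to 3 of each pathway list. Also named were the 3 genes on each side of each limit and up to 2 called genes of each list outside the set. Further chosen genes were named by role after their values were seen. The p-values set a group difference against the spread within groups of 3 libraries, and this small number of libraries limits the precision. Alternatives changed the pseudocount (0.1 or 5), the filter (none, or 5 FPKM), the scaling (median of ratios, or quantile normalisation) and the libraries (each left out, or only the 6 compared). Isoforms were also taken singly, and the replicate number was also fitted as a block. The count of chosen genes called lower under these was added after seeing the data. Protein features of the chosen genes were not analysed here. A few of the list results are left out of the text.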

Additional observations from a re-analysis of the deposited data

How the results depend on the processing

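With 1 library left out, 2 libraries stood for its group. Genes called lower at day 1 (453) then ranged from 55 to 721, genes higher (522) from 181 to 658, genes lower at day 28 (393) from 120 to 426 and genes higher (303) from 154 to 368. The rule chose 131 to 242 genes, the most without NM day 1 replicate 2, and 49 of the 151 were chosen in all 9 of these runs. Of the 151, 21 to 134 were called lower at day 1. Quantile normalisation gave 279 genes lower at day 1, a filter of 5 FPKM 324 higher at day 1, where fewer genes were tested, and a fit of only the 6 libraries compared 230 lower at day 28. Of the 151 genes 97 were still chosen with a pseudocount of 5 and also 97 after quantile normalisation. The causes were not tested. Of 442 values of single genes under an alternative, 431 moved by less than the replicate SD, 11 by more and 0 reversed. Those not given in the report were Chmp2a and Rhog after quantile normalisation (-0.38 and -0.63).

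With the replicate number as a block (replicate block) 347 genes were lower and 481 higher at day 1, 348 and 278 at day 28, and 98 of the 151 were called lower. The correlations of same-numbered libraries ran from -0.10 to 0.20, and those of differently numbered libraries from -0.26 to 0.25. The libraries were not treated as pairs, and a shared batch was not tested.

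Read counts were not used here, so depth limits the values of low genes by an unknown amount.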

Other observations

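The genes that the rule left out by name lay in the same range. Rabac1, which binds Rab proteins, stood at -1.08 at day 1, Rpl35, a ribosomal protein, at -0.95 and Slc24a3, a sodium, potassium and calcium exchanger, at -0.82. Slc29a3, a lysosomal nucleoside transporter, stood at -0.81, Slc25a1, the mitochondrial citrate carrier, at -0.77, Acadvl, of very long chain fatty acid oxidation, at -0.73 and Srebf1, the SREBP that Scap escorts, at -0.70.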
